A study of Mus musculus with 6 samples.

Results

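The genes described here are the ligands, receptors, antagonists and signal transducers of the Wnt pathway, without Wnt4 and Rspo1. They were chosen by symbol alone: every listed symbol made of Wnt, Fzd, Sfrp, Dkk, Rspo or Dvl and a digit, and 25 further genes named one by one. Of 67 symbols that the rule covers, 40 were listed among the 11736 genes of the deposited tables, and 27 were not. RNA was measured in gonads of XY mouse embryos of the C57BL/6 strain at embryonic stage E11.5, in 3 libraries of the genotype Cdyl-Het, Nr5a1-hCD271 and 3 of the genotype Cdyl-KO, Nr5a1-hCD271. The cells were those that carried hCD271 on their surface, isolated on magnetic beads and called gonadal somatic cells by the labels. Both groups carry Nr5a1-hCD271 and a Cdyl deficiency, in 1 copy (Cdyl-Het) or both (Cdyl-KO), so the comparison is between deficiency grades and holds no wild-type embryos. How hCD271 is driven, what form the Cdyl mutation takes, and whether the 3 samples of a group came from separate embryos, pools or litters are points the sources used here do not give. A p-value thus reflects the spread among these 6 samples alone, and that spread may be technical.

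Wnt proteins are lipid-modified signals that Porcn prepares and Wls carries to the cell surface. On the receiving cell they bind a Frizzled receptor together with Lrp5 or Lrp6, and Dishevelled then holds back a destruction complex of Axin1, Apc, Gsk3 and casein kinase 1. Beta-catenin (Ctnnb1) escapes breakdown and switches on target genes with TCF factors, while other receptors such as Ryk and Ror2 feed branches that do not need beta-catenin. R-spondins, bound by Lgr4, Lgr5 or Lgr6, strengthen the signal by removing Znrf3 and Rnf43, which take Frizzled off the surface. In the fetal gonad, R-spondin 1, Wnt4 and beta-catenin are known to promote ovarian development, and the Sry and Sox9 pathway opposes them in XY gonads. CDYL, the protein of the Cdyl gene, is a chromatin protein known to act in gene repression.

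Most of these genes differed little between Cdyl-KO and Cdyl-Het. Dvl1, which encodes a Dishevelled protein, and Wnt2b, which encodes a ligand, were higher in Cdyl-KO, each with a log2 change of 0.33. None of the 40 was lower by limma at an adjusted p under 0.05, although 3 (Kremen1, Ror2 and Wnt11) were lower at an unadjusted p under 0.05. The share called was 5% of the 40 genes, beside 7.50% of all 11736 genes (548 higher, which is 4.67%, and 332 lower, which is 2.83%). Called genes were thus not more frequent among the Wnt pathway genes than in the tables at large. At an unadjusted p under 0.05 there were 11 of the 40 genes (27.5%) and 2977 of all genes (25.4%).

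Levels are given as scaled RPKM, read numbers divided by gene length in kilobases and by the library's M reads, then multiplied by 1 factor per library so that most genes line up between libraries. The scale is per gene length, so levels of different genes can be set side by side. Changes are Cdyl-KO minus Cdyl-Het on the log2 scale of scaled RPKM plus a pseudocount of 1, a scale on which changes of weakly expressed genes look smaller than they are, with the standard error (SE) and the p adjusted by Benjamini-Hochberg over all genes from limma. The choice of scale matters for small changes. Without scaling, the median log2 change of all genes moved from -0.00 to -0.12, that of the 40 genes from 0.10 to -0.04, and the calls over all genes from 548 higher and 332 lower to 305 higher and 1558 lower. Of the 40 genes, 0 were then higher and 5 lower (Kremen1, Lrp5, Ror2, Ryk and Wnt11). Directions below hold relative to the bulk of genes, and shares within a gene family, which a factor per library cannot move, are given beside them.

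For the Cdyl gene itself, Cdyl-Het replicates 1 to 3 stood at 7.77, 8.06 and 8.22 scaled RPKM and Cdyl-KO replicates 1 to 3 at 6.77, 6.93 and 7.07 (log2 change -0.19, SE 0.05, adjusted p = 0.0702). Every Cdyl-KO library lay below every Cdyl-Het library, but RNA of the gene was present in all 6, and without the form of the mutation this level does not check the labels. Steps between the low values of short genes gave a depth of 34.6 to 45.2 M reads per library, with 85.4% to 87.1% of low values within 0.05 of a whole read. Across genes, which are not independent replicates, log2 values of libraries of a group correlated at 0.976 to 0.983 and those of different groups at 0.962 to 0.977. The tissue's defining genes were present: Nr5a1 had 85.8 ± 7.76 scaled RPKM in Cdyl-Het and 77.7 ± 7.31 in Cdyl-KO (SD, n = 3), and Gata4 and Wt1 had means between 70.5 and 79.1. Each listed gene had a Cdyl-KO mean of at least 1.0002 RPKM as deposited, whereas 100 listed genes had a Cdyl-Het mean under 1. A gene that was under 1 RPKM in Cdyl-KO is thus not analysed here, and among the 40 genes only Frzb had a Cdyl-Het mean under 1.

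Markers of other cell types of the region also differed between the groups, and in bulk samples fewer cells of a type and less RNA per cell cannot be told apart. Over all genes, 4.67% were called higher and 2.83% lower, and each count below is read beside these shares. Of 12 listed endothelial markers, 5 fell (1 to 3 when a library was left out), 0 rose and all 12 had a negative log2 change. Their summed level was 45.6 to 50.3 scaled RPKM in Cdyl-Het and 29.7 to 35.4 in Cdyl-KO, and Flt1, Emcn, Sox17 and Robo4 were not listed. Of 11 markers of the coelomic epithelium, 4 rose (1 to 4 when a library was left out) and 0 fell, with a sum of 243 to 289 in Cdyl-Het and 349 to 364 in Cdyl-KO. Lgr5, Msln, Muc16 and Gpm6a of that list were not listed. Of 12 markers of pre-Sertoli and supporting cells, 3 rose and 7 fell (2 to 4 and 2 to 7 when a library was left out), with sums of 197 to 231 and 170.4 to 192. Log2 changes in this list ran from -2.02 to 0.60, so its sums add falls and rises together. Of 8 mesonephric markers, 2 rose (1 to 2 when a library was left out) and 0 fell, with sums of 70.3 to 81.0 and 97.3 to 103. Of 15 markers of interstitial progenitors, which include Wnt5a, 2 rose (0 to 1 when a library was left out) and 0 fell, with sums of 237 to 253 and 253 to 260.4. Blood markers reached 55.4 to 264 in Cdyl-Het and 58.3 to 165 in Cdyl-KO without a call among 8. Only 3 of 15 symbols for germ cells were listed, without a call, with sums of 5.81 to 7.34 in Cdyl-Het and 5.65 to 5.78 in Cdyl-KO. Of 10 markers of gonadal somatic cells, 3 rose (2 to 3 when a library was left out) and 0 fell. Among these 3, Emx2 is counted with the mesonephric rises too, and Nr0b1 with the pre-Sertoli ones. Of 4 steroidogenic markers, 0 rose and 1 fell (1 to 2). Only 4 of 14 symbols for neural crest, nerve and muscle were listed, of which 1 rose (0 to 1) and 0 fell. Without scaling, 0 interstitial markers were higher and 4 lower, so the direction of that list rests on the scaling. In that fit 305 of all genes were higher and 1558 lower. In the same fit the endothelial list had 0 higher and 7 lower, the coelomic epithelium 3 and 0, the pre-Sertoli list 3 and 7, the mesonephric list 2 and 1, the gonadal somatic list 3 and 1, the steroidogenic list 0 and 2, and the neural crest list 1 and 0. The part of these cell types in the results on Wnt genes was not tested.

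**Figure D1:**
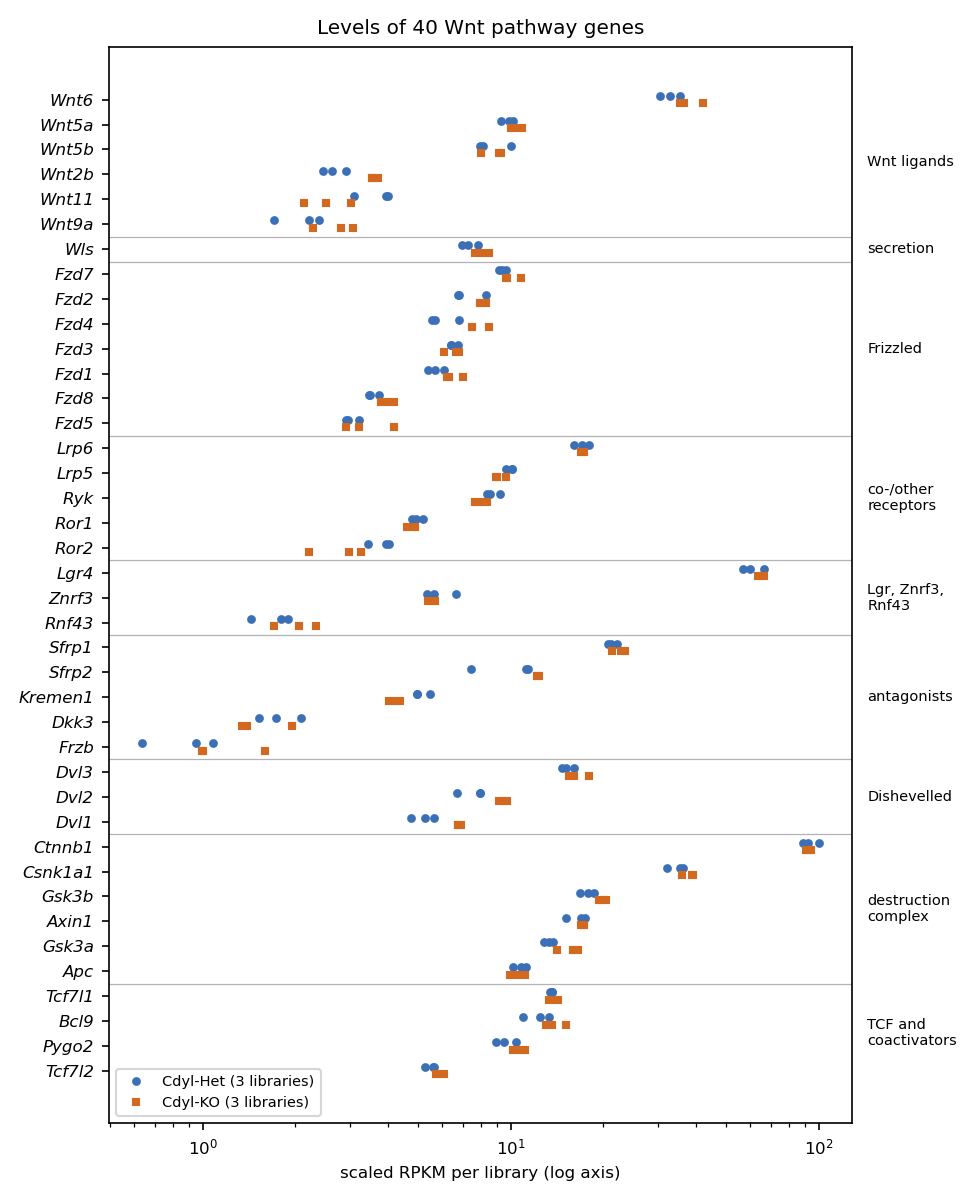
Level of each of the 40 Wnt pathway genes in each library, in scaled RPKM on a log axis, grouped by role and ordered by level within a role; circles are the 3 Cdyl-Het libraries and squares the 3 Cdyl-KO libraries. Ctnnb1 and Lgr4 stand highest, Frzb lowest, and for most genes the groups lie close together or overlap.

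Promoter sequences were taken from the RefSeq table of the build GRCm38.p6 for the 2 Dishevelled genes that differed most and for the first of 2 annotated starts of Wnt11, the ligand with the lowest log2 change. These are the 250 bases before the annotated start, 5′ to 3′ on the strand of the gene, with each CpG in capitals. The Dvl1 stretch lies at chr4:155847152-155847401 (plus strand), the Dvl2 stretch at chr11:70000342-70000591 (plus strand) and the Wnt11 stretch at chr7:98834862-98835111 (plus strand).
Dvl1: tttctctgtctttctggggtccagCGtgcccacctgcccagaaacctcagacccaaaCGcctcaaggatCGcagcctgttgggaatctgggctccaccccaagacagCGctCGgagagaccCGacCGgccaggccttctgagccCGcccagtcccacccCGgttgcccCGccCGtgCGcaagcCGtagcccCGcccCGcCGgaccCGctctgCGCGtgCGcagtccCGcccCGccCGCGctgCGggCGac
Dvl2: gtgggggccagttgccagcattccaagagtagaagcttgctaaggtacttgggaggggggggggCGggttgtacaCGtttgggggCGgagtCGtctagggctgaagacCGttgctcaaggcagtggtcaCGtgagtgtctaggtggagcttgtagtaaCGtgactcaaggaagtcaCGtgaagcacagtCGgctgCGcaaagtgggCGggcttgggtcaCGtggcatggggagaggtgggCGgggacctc
Wnt11: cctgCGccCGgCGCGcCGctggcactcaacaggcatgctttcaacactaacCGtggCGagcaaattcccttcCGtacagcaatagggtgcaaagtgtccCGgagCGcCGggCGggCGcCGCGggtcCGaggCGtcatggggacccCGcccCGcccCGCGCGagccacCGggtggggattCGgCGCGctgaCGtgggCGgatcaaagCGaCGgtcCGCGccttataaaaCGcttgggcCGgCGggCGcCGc
The Dvl1 stretch held 26 CpG, a count reached by 9.59% of all 32851 promoters in the table and by 19.3% of the promoters of listed genes. The Dvl2 stretch held 13, reached by 31.5% and 64.4%, and the printed Wnt11 stretch 37, reached by 2.2% and 4.38%. The stretch before the second Wnt11 start, at chr7:98838595-98838844, held 16, reached by 25.4% and 52.5%. The table held 35 promoters for 27 of the 40 genes. Their median was 21 CpG, against 6 over all promoters and 16 over the promoters of listed genes. The core motif of TCF and LEF factors (CTTTGA, searched on both strands) was in 7 of the 35 (20%), in 13.8% of all promoters of this length and in 10% of the promoters of listed genes. In the first Wnt11 stretch the match lay on the opposite strand and began 50 bases before the start, where the printed strand reads tcaaag. The second Wnt11 stretch, Dvl1 and Dvl2 did not hold it. The NR5A1 motif AAGGTCA was in 0 of the 35 stretches, in 4.08% of all promoters and in 2.82% of the promoters of listed genes. For the core TTCAGCACC of the REST motif these were 0, 0.301% and 0.3%. Both were searched on both strands, and these are matches of letters only.

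Among the ligands, 6 of 18 symbols were listed: Wnt6, Wnt5a, Wnt5b, Wnt11, Wnt2b and Wnt9a. Wnt2b was called higher and the other 5 did not pass the threshold. Wnt6, a ligand known from developing epithelia, stood well above the rest, with 30.5, 35.4 and 33.0 scaled RPKM in Cdyl-Het compared with 36.6, 35.6 and 42.1 in Cdyl-KO. Every Cdyl-KO value lay above every Cdyl-Het value, but the nearest libraries almost met, and the change did not pass (log2 change 0.20, SE 0.08, adjusted p = 0.184). Wnt5a, the classic ligand of the branches without beta-catenin, had 9.78 ± 0.467 in Cdyl-Het and 10.4 ± 0.449 in Cdyl-KO (SD, n = 3 per group here and below). Wnt5b, its close relative, had 8.71 ± 1.15 and 8.82 ± 0.708. In Cdyl-Het the libraries of Wnt5a and Wnt5b overlapped, and in Cdyl-KO those of Wnt9a and Wnt11 did. Wnt9a had 2.10 ± 0.355 and 2.73 ± 0.408.

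Wnt2b (chromosome 3, 104945272 to 104961921, minus strand, mm10) encodes a ligand that acts through beta-catenin. Its levels were 2.91, 2.45 and 2.63 scaled RPKM in Cdyl-Het, against 3.56, 3.56 and 3.72 in Cdyl-KO. The 3 Cdyl-KO libraries sat close together, all above the highest Cdyl-Het library. The ratio of the means was 1.36 (log2 change 0.33, 95% interval 0.17 to 0.50, SE 0.07, adjusted p = 0.0373), and the lowest value rests on about 420 reads. The call held without Cdyl-Het replicate 1 (adjusted p = 0.0450) and was lost without Cdyl-Het replicate 2 (0.101) or 3 (0.112), and likewise without Cdyl-KO replicate 1 (0.10), 2 (0.0905) or 3 (0.104). It was also lost without scaling (log2 change 0.22, adjusted p = 0.0710), and adjusted p ran from 0.0236 to 0.112 over its 13 alternatives.

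Wnt11, a ligand known mainly for planar polarity and cell movement, had the opposite sign. It had 3.09, 3.99 and 3.94 scaled RPKM in Cdyl-Het compared with 2.13, 2.51 and 3.04 in Cdyl-KO. The groups did not overlap, but the lowest Cdyl-Het and the highest Cdyl-KO library nearly met, and the change did not pass (log2 change -0.39, SE 0.12, adjusted p = 0.0975). It passed only in the fit without scaling (log2 change -0.50, adjusted p = 0.0355). Exons of Wnt11 overlap those of Gm8398 on the other strand by 364 bases, and no source used here says whether strand was used in counting, so reads of the 2 cannot be told apart there.

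Set against one another within each library, the ligands shifted in share. With Wnt4, which is known for its role in the ovary and the female ducts, there were 7 listed ligands. Wnt4 itself rose from 21.7 ± 1.58 to 32.4 ± 2.52 scaled RPKM (log2 change 0.56, SE 0.08, adjusted p = 0.0104). Its share of the ligand sum was 29.0%, 25.4% and 25.5% in Cdyl-Het, against 35.3%, 31.9% and 31.4% in Cdyl-KO. Wnt6 kept the highest share, with 40.4% ± 2.02 and 38.6% ± 2.02, and its groups overlapped. Wnt11 took 4.50% ± 0.581 in Cdyl-Het and 2.59% ± 0.404 in Cdyl-KO, Wnt5a 12% ± 0.354 and 10.6% ± 0.515, and Wnt5b 10.6% ± 0.848 and 8.95% ± 0.846. In these 3, every Cdyl-KO share lay below every Cdyl-Het share, in a sum that holds the higher Wnt4. In the sum without Wnt4, a choice made after the data were seen, the shares of Wnt5a (16.4% ± 0.957 and 15.8% ± 1.23) and Wnt5b (14.5% ± 0.998 and 13.3% ± 0.942) overlapped, while that of Wnt11 (6.12% ± 0.642 and 3.85% ± 0.488) did not. The share of Wnt2b overlapped between groups, with 3.28% ± 0.405 and 3.67% ± 0.107, although its level did not, and without Wnt4 in the sum its share (4.48% ± 0.662 and 5.46% ± 0.174) did not overlap either. The 12 ligands that were not listed were Wnt1, Wnt2, Wnt3, Wnt3a, Wnt7a, Wnt7b, Wnt8a, Wnt8b, Wnt9b, Wnt10a, Wnt10b and Wnt16.

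**Figure D2:**
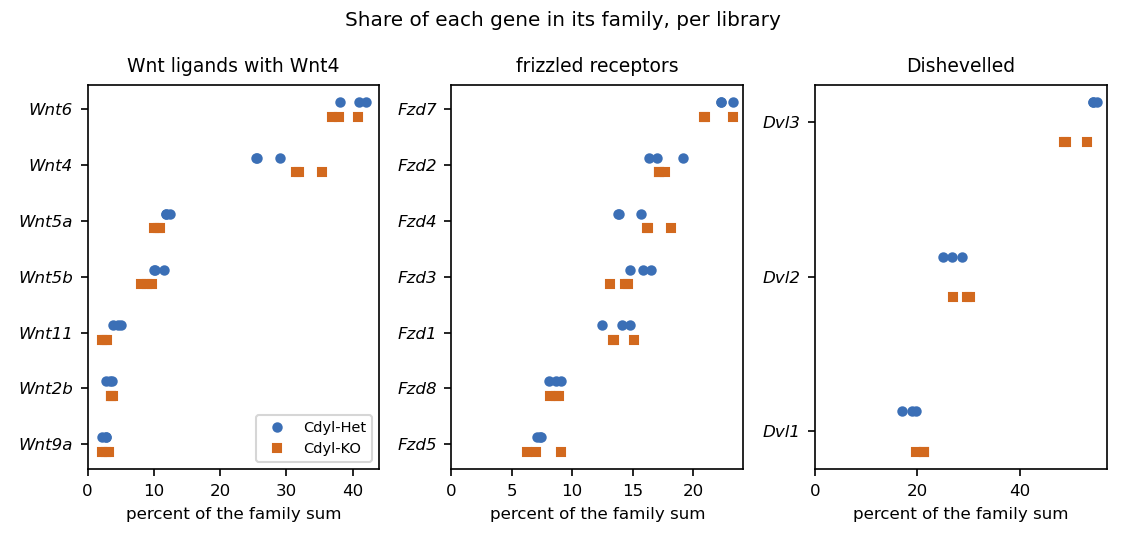
Share of each gene in the summed scaled RPKM of its family, in percent per library, for the ligands with Wnt4 (left), the Frizzled receptors (middle) and Dishevelled (right); circles are Cdyl-Het and squares Cdyl-KO. Wnt4, Fzd4 and Dvl1 take higher shares in every Cdyl-KO library than in any Cdyl-Het library, and Wnt11, Wnt5a, Wnt5b, Fzd3 and Dvl3 lower ones; with Wnt4 left out of the sum, Wnt5a and Wnt5b overlap.

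Ligand release depends on Wls, the carrier of Wnt proteins. Wls had 6.93, 7.85 and 7.27 scaled RPKM in Cdyl-Het, against 8.50, 8.05 and 7.66 in Cdyl-KO. The groups overlapped and the change did not pass (log2 change 0.12, SE 0.06, adjusted p = 0.296). Porcn, the enzyme that attaches the lipid, was not listed.

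Of the 10 Frizzled receptors, which bind the ligands, 7 were listed and none passed the threshold, with Fzd4 and Fzd1 at an unadjusted p under 0.05. Fzd7 had the highest level, with 9.64, 9.17 and 9.36 scaled RPKM in Cdyl-Het compared with 9.76, 10.8 and 9.67 in Cdyl-KO. The groups did not overlap, although their nearest libraries almost met (log2 change 0.09, SE 0.06, adjusted p = 0.387). Fzd2 followed, with 7.30 ± 0.889 in Cdyl-Het and 8.06 ± 0.194 in Cdyl-KO, and in both groups its libraries overlapped those of the next receptor. Fzd3, known for axon guidance and planar polarity, had 6.52 ± 0.217 and 6.5 ± 0.386. Fzd1, Fzd8 and Fzd5 were lower, with Cdyl-Het means of 5.71, 3.57 and 3.03 and, in Cdyl-KO, 6.49, 3.98 and 3.45. Fzd6, Fzd9 and Fzd10 were not listed.

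Fzd4, a receptor for Norrin as well as for Wnt ligands, did not pass the threshold. Its levels were 6.82, 5.70 and 5.54 scaled RPKM in Cdyl-Het, against 8.53, 7.48 and 7.50 in Cdyl-KO. All 3 Cdyl-KO libraries lay above the Cdyl-Het libraries, of which replicate 1 was the nearest. The ratio of the means was 1.30 (log2 change 0.34, 95% interval 0.13 to 0.54, SE 0.09, adjusted p = 0.0626). It passed without Cdyl-Het replicate 1 (adjusted p = 0.0377) and among genes with a mean of at least 5 RPKM (0.0499). In Cdyl-Het its libraries overlapped those of Fzd3 above it and Fzd1 below it, and in Cdyl-KO it stood clear of Fzd3. Its share of the Frizzled sum was 14.5% ± 1.11 in Cdyl-Het and 16.9% ± 1.16 in Cdyl-KO without overlap, and that of Fzd3 was 15.7% ± 0.838 and 14% ± 0.786, also without overlap. The Frizzled sum was 41.5 ± 1.6 and 46.4 ± 0.352 scaled RPKM, a difference of 4.86 that shrank to 0.442 without scaling.

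All 5 co-receptors and alternative receptors were listed, 4 of them had a negative log2 change, and none passed the threshold. Lrp6, the main partner of Frizzled for beta-catenin, had 17.0, 18.0 and 16.0 scaled RPKM in Cdyl-Het compared with 17.3, 16.9 and 17.1 in Cdyl-KO. The Cdyl-KO values fell inside the Cdyl-Het range (log2 change 0.01, 95% interval -0.12 to 0.14, SE 0.06, adjusted p = 0.942). Lrp5, its relative, had 9.97 ± 0.261 and 9.24 ± 0.381. Ryk, a receptor without an active kinase, had 8.73 ± 0.459 and 8.0 ± 0.339, and Ror1 had 4.96 ± 0.205 and 4.77 ± 0.151. In each group, the order Lrp6, Lrp5, Ryk, Ror1 and Ror2 held in every library, with no overlap between neighbours.

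Ror2, the receptor of Wnt5a in planar polarity, was the lowest of the 5. It had 3.95, 4.02 and 3.44 scaled RPKM in Cdyl-Het, against 2.22, 2.99 and 3.26 in Cdyl-KO. No Cdyl-KO library reached the Cdyl-Het range, and Cdyl-KO replicate 1 was the lowest. The change did not pass (log2 change -0.34, 95% interval -0.61 to -0.06, SE 0.12, adjusted p = 0.126), although it did in the fit without scaling (-0.45, adjusted p = 0.0398). Its share of the 5 receptors was 8.54% ± 0.379 in Cdyl-Het and 6.72% ± 1.23 in Cdyl-KO, and that of Lrp6 was 38.2% ± 0.652 and 40.8% ± 0.794. Neither share overlapped between the groups.

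Of the R-spondins, Rspo2, Rspo3 and Rspo4 were not listed. Rspo1, left out of the 40 genes, rose from 17.2 ± 1.99 to 24.3 ± 0.793 scaled RPKM (log2 change 0.48, adjusted p = 0.0194), and its call was lost when Cdyl-Het replicate 2 (0.0555) or 3 (0.0777) was left out, and without Cdyl-KO replicate 1 (0.0684) or 2 (0.0589). Among the receptors of R-spondins only Lgr4 was listed. It was the second highest of the 40 genes, above 96.7% of all genes in level, with 60, 66.7 and 56.7 scaled RPKM in Cdyl-Het compared with 66.5, 63.5 and 66.0 in Cdyl-KO. The groups overlapped (log2 change 0.10, SE 0.07, adjusted p = 0.430). Lgr5 and Lgr6 were not listed. The ubiquitin ligase Znrf3 had 5.88 ± 0.664 and 5.57 ± 0.141, and its partner Rnf43 had 1.71 ± 0.233 and 2.03 ± 0.316, with overlap in both.

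The antagonists, the Dickkopf receptor Kremen1 among them, had 11 symbols, of which 5 were listed and none passed the threshold. Sfrp1, which binds Wnt proteins outside the cell, had 21.1, 22.2 and 20.7 scaled RPKM in Cdyl-Het, against 23.5, 22.9 and 21.4 in Cdyl-KO. The groups overlapped (log2 change 0.08, SE 0.06, adjusted p = 0.431). Sfrp2, of the same family, had 10.0 ± 2.23 in Cdyl-Het, where replicate 2 stood at 7.45, and 12.3 ± 0.0696 in Cdyl-KO (log2 change 0.29, SE 0.14, adjusted p = 0.253). Dkk3, a divergent Dickkopf protein, had 1.78 ± 0.284 and 1.56 ± 0.340. Frzb, a relative of the Sfrp proteins, had 0.887 ± 0.226 and 1.19 ± 0.342 and was the lowest of the 40 genes, with about 84 reads at its lowest value. It is listed only through its level in Cdyl-KO, so the direction of its change was fixed. Dkk1, Dkk2, Dkk4, Sfrp4, Sfrp5 and Wif1 were not listed.

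Kremen1, which removes Lrp6 from the surface when Dickkopf is bound, is given in full because its adjusted p was the smallest among genes with a negative change, a choice made after its values were seen. It had 4.95, 4.96 and 5.46 scaled RPKM in Cdyl-Het compared with 4.02, 4.25 and 4.38 in Cdyl-KO. The lowest Cdyl-Het library stood above the highest Cdyl-KO library, and the change did not pass (log2 change -0.23, 95% interval -0.38 to -0.08, SE 0.06, adjusted p = 0.0700). Without scaling it passed (-0.35, adjusted p = 0.0188). Its share of the antagonist sum was 13.1% ± 0.705 in Cdyl-Het and 10.1% ± 0.683 in Cdyl-KO, without overlap. The share of Sfrp2 was 25.5% ± 4.49 and 29.4% ± 0.821, also without overlap. Its nearest shares, 28.3% and 28.7%, almost touched, and Cdyl-Het replicate 2 stood at 20.3%.

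All 3 Dishevelled genes, which pass the signal from Frizzled to the destruction complex and to planar polarity, had a positive log2 change, and Dvl1 was called. Dvl1 (chromosome 4, 155847402 to 155859303, plus strand, mm10) had 4.74, 5.62 and 5.26 scaled RPKM in Cdyl-Het, against 6.91, 6.75 and 6.73 in Cdyl-KO. The Cdyl-KO libraries nearly coincided, above all Cdyl-Het libraries, of which replicate 1 was lowest. The ratio of the means was 1.31 (log2 change 0.33, 95% interval 0.18 to 0.49, SE 0.07, adjusted p = 0.0293), and the lowest value rests on about 856 reads. The call held without Cdyl-Het replicate 2 (adjusted p = 0.0495) and was lost without Cdyl-Het replicate 1 (0.0605) or 3 (0.0900), and likewise without Cdyl-KO replicate 1 (0.0954), 2 (0.0776) or 3 (0.0745). It was also lost without scaling (log2 change 0.21, adjusted p = 0.0785), and adjusted p ran from 0.0251 to 0.0954 over 14 alternatives. Exons of Dvl1 overlap those of Tas1r3 on the other strand by 36 bases.

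Dvl2 differed almost as much without passing. It had 7.97, 7.96 and 6.70 scaled RPKM in Cdyl-Het compared with 9.70, 9.61 and 9.17 in Cdyl-KO. The groups did not overlap, and Cdyl-Het replicate 3 was the lowest library (log2 change 0.30, 95% interval 0.13 to 0.47, SE 0.07, adjusted p = 0.0533). It passed with a pseudocount of 5, and among genes with a mean of at least 5 RPKM (adjusted p = 0.0405 in the latter). Its exons overlap those of Acadvl, on the other strand, and Mir324 by 1240 bases in all. Dvl3, the most abundant of the 3, had 15.1, 16.1 and 14.7 in Cdyl-Het, against 16.1, 15.5 and 18.0 in Cdyl-KO, and these overlapped (log2 change 0.10, SE 0.07, adjusted p = 0.417). The Dishevelled sum was 28.1 ± 1.52 and 32.8 ± 1.05 scaled RPKM, a difference of 4.74 with the groups apart, and 1.67 without scaling. Within it the share of Dvl1 was 18.6% ± 1.37 in Cdyl-Het and 20.7% ± 0.770 in Cdyl-KO and that of Dvl3 was 54.6% ± 0.520 and 50.3% ± 2.47, neither overlapping. For Dvl1 the nearest shares, 19.7% and 19.8%, almost touched.

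**Figure D3:**
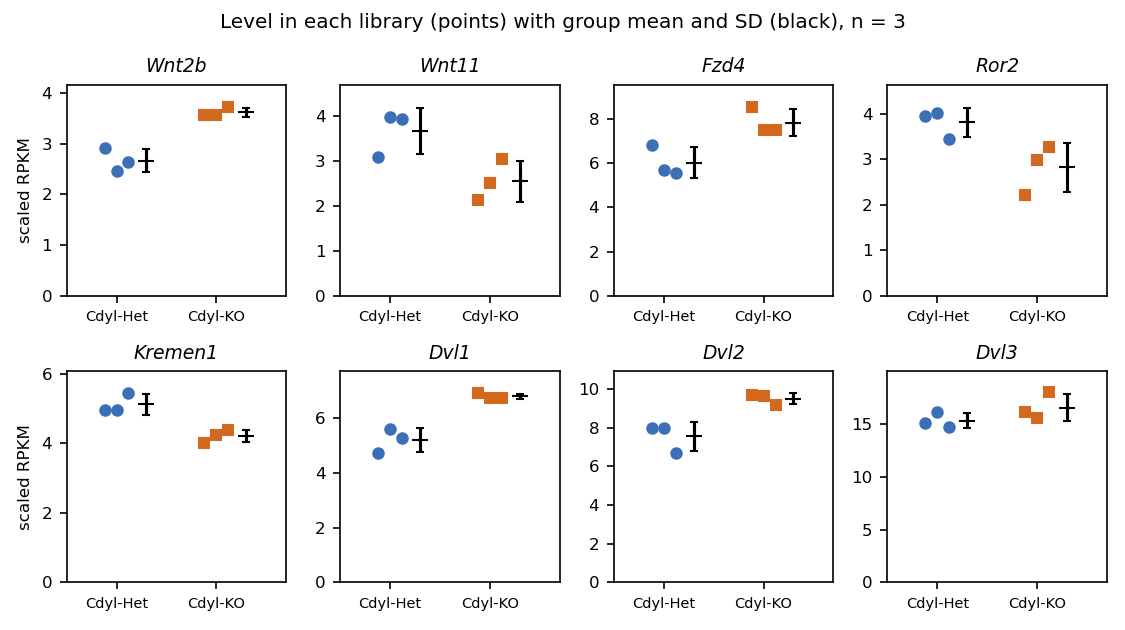
Level of 8 Wnt pathway genes in each library, in scaled RPKM on axes that start at 0; points are libraries 1 to 3 of each group from left to right, and black bars the mean and SD (n = 3). In all but Dvl3 the groups do not overlap, with Wnt2b, Fzd4, Dvl1 and Dvl2 higher and Wnt11, Ror2 and Kremen1 lower in Cdyl-KO.

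The 6 genes of the destruction complex and its substrate were all listed and none passed. Ctnnb1, which encodes beta-catenin, was the highest of the 40 genes, above 97.8% of all genes in level, with 92.2, 100 and 89.1 scaled RPKM in Cdyl-Het compared with 94.5, 91.3 and 93.2 in Cdyl-KO. The Cdyl-KO values fell inside the Cdyl-Het range (log2 change -0.01, 95% interval -0.15 to 0.13, SE 0.06, adjusted p = 0.939). This is RNA, and the amount of beta-catenin protein was not measured. Exons of Ctnnb1 overlap those of Ulk4 on the other strand and of Mir7090. Csnk1a1, the priming kinase, had 34.6 ± 2.13 and 38.0 ± 1.63, and the scaffold Axin1 had 16.5 ± 1.22 and 17.2 ± 0.245. Apc, the other scaffold, had 10.7 ± 0.480 and 10.5 ± 0.578.

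Both forms of the kinase Gsk3 lay above their Cdyl-Het values in every Cdyl-KO library. Gsk3b had 17.8 ± 0.944 and 19.8 ± 0.561 scaled RPKM (log2 change 0.15, SE 0.06, adjusted p = 0.149). Gsk3a had 13.3 ± 0.443 and 15.6 ± 1.30 (log2 change 0.21, SE 0.07, adjusted p = 0.109), and 820 bases of its exons overlap those of 9130221H12Rik on the other strand. Summed over the 6 genes the level was 187 ± 10.4 and 194 ± 3.13, with overlap, and the sign of the difference (7.48) turned without scaling (-11.7) and with quantile normalization (-3.77).

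The TCF factors and coactivators, which carry the signal in the nucleus, had 4 of 4 symbols listed and none passed. Tcf7l1, known mostly as a repressor of Wnt targets, had 13.4, 13.6 and 13.6 scaled RPKM in Cdyl-Het, against 13.9, 13.3 and 14.2 in Cdyl-KO. The groups overlapped (log2 change 0.02, 95% interval -0.09 to 0.14, SE 0.05, adjusted p = 0.792). Bcl9 and Pygo2, which act as coactivators on beta-catenin, overlapped between groups. Bcl9 had 12.3 ± 1.12 in Cdyl-Het and 13.9 ± 1.06 in Cdyl-KO, and Pygo2 had 9.63 ± 0.703 and then 10.7 ± 0.447. Tcf7l2 had 5.49 ± 0.208 and 5.85 ± 0.195, without overlap between groups (log2 change 0.08, adjusted p = 0.433). Their sum was 40.9 ± 1.95 and 44.2 ± 1.46 without overlap, and the difference of 3.29 turned to -1.01 without scaling.

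Taken by direction, 29 of the 40 genes (72.5%) had a positive and 11 a negative log2 change, beside 49.8% positive over all genes. The median was 0.10 against -0.00 over all genes, and without scaling -0.04 against -0.12. Frzb, among the 29, is listed only through its level in Cdyl-KO, which fixed its direction. Better expressed genes had a higher median in general: with all genes cut into 4 equal groups by level, it was -0.09, -0.03, 0.02 and 0.07 from the lowest to the highest, and these held 4, 9, 15 and 12 of the 40 genes. The part of level in the direction of the 40 genes was not tested. In 12 genes every Cdyl-KO library lay above every Cdyl-Het library, and in 4 (Kremen1, Ror2, Ryk and Wnt11) below, which is 40% together, beside 31.6% of all genes (2001 higher, 1706 lower). Without scaling those counts were 3 and 12. With the scaling used here and a pseudocount of 1, the 95% interval lay within 0.5 of 0 for 33 of the 40 genes (79.2% of all genes). It lay within 0.7 for all 40 (89.3%). These bounds hold for that log2 scale only, on which changes of weakly expressed genes look smaller than they are. The genes not within 0.5 were Frzb, Fzd4, Ror2, Sfrp2, Wnt11, Wnt2b and Wnt9a. These intervals are not adjusted for the number of genes.

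**Figure D4:**
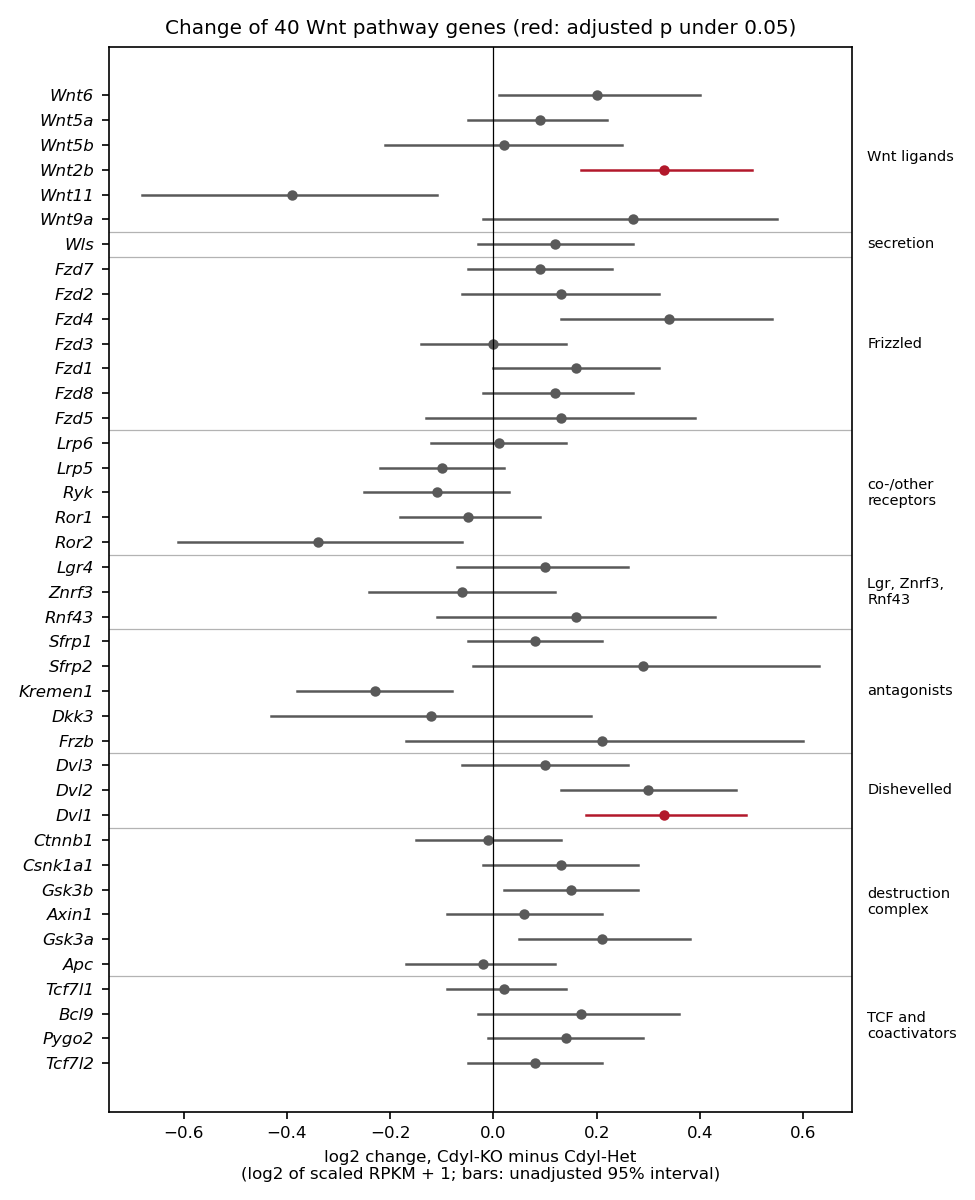
Log2 change of each of the 40 Wnt pathway genes, Cdyl-KO minus Cdyl-Het, with its unadjusted 95% interval from limma, grouped by role; red marks an adjusted p under 0.05. Only Dvl1 and Wnt2b are red, and all intervals lie between -0.7 and 0.7.

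The rest of the pathway was read from 6 further lists of genes that the symbol rule leaves out and from a list of known target genes. Of 128 listed genes in these 7 lists, 12 were called higher and 5 lower, with a median log2 change of 0.04. One of the 12, Celsr3, is listed only through its level in Cdyl-KO, which fixed its direction. The lists were chosen with earlier results of these data known, and each count is read beside the 4.67% of all genes that were higher and the 2.83% that were lower.

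Outside the cell, 4 of 19 other modulators rose and 2 fell, with a median log2 change of 0.16. Lrp4, a relative of Lrp5 and Lrp6 that binds agrin and the Wnt inhibitor sclerostin, fell most. It had 6.92, 10.8 and 10.3 scaled RPKM in Cdyl-Het compared with 2.86, 2.97 and 3.75 in Cdyl-KO, with a wide gap between the groups (log2 change -1.29, SE 0.16, adjusted p = 0.00849). Gpc3, a glypican of the cell surface, had 203, 196 and 186 in Cdyl-Het, against 265, 273 and 255 in Cdyl-KO, also far apart (log2 change 0.44, SE 0.06, adjusted p = 0.0103). Wnt4 and Rspo1, given above, rose as well. The calls of Lrp4, Gpc3 and Wnt4 held in all 14 alternatives, and over these the log2 change of Lrp4 ran from -1.50 to -0.80, that of Gpc3 from 0.22 to 0.47 and that of Wnt4 from 0.42 to 0.61. The lowest value of Gpc3 came from quantile normalization, and without scaling it was 0.29. Atp6ap2, which links the receptors to the proton pump, and Shisa2, which keeps Frizzled inside the cell, were called higher and lower, and passed in 5 and 6 of 14 alternatives. Leaving out any 1 of the 6 libraries ended both calls (adjusted p of 0.0613 to 0.118 for Atp6ap2 and 0.0561 to 0.137 for Shisa2).

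Inside the cell, few genes passed. Of 23 further genes of the destruction complex and its kinases, Axin2 rose and none fell, and 3 had an unadjusted p under 0.05. Axin2, a scaffold that is also a direct target of beta-catenin, had 9.98, 9.88 and 8.85 scaled RPKM in Cdyl-Het compared with 12.7, 12.6 and 11.4 in Cdyl-KO (log2 change 0.32, SE 0.07, adjusted p = 0.0345). The groups did not overlap. Among the libraries left out in turn, the call held only without Cdyl-KO replicate 3, and was lost without Cdyl-Het replicate 1 (0.0588), 2 (0.0803) or 3 (0.0975) and Cdyl-KO replicate 1 (0.108) or 2 (0.0996). It was also lost without scaling (log2 change 0.19, adjusted p = 0.105). Exons of Axin2 overlap those of Gm11670 on the other strand by 209 bases. Of 13 regulators and partners of Dishevelled, 0 rose and 0 fell by limma, and 4 had an unadjusted p under 0.05.

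Of 23 further nuclear factors, 2 rose and 0 fell. Lef1, a TCF factor that is itself a target, had 7.30, 5.47 and 5.71 scaled RPKM in Cdyl-Het, against 9.09, 9.15 and 8.70 in Cdyl-KO (log2 change 0.49, SE 0.10, adjusted p = 0.0292). Bcl9l, the relative of Bcl9, had 10.8, 10.0 and 9.54 and then 12.5, 12.5 and 13.7 (log2 change 0.32, SE 0.06, adjusted p = 0.0281). In both genes the groups stood apart. Each call held only without Cdyl-Het replicate 1 when libraries were left out in turn. With Cdyl-Het replicate 2, Cdyl-Het replicate 3, or Cdyl-KO replicate 1, 2 or 3 left out, adjusted p was 0.0859, 0.105, 0.0874, 0.0817 and 0.0681 for Lef1 and 0.0869, 0.0908, 0.0715, 0.0674 and 0.0780 for Bcl9l. Without scaling the call of Bcl9l was lost as well (log2 change 0.19, adjusted p = 0.0587). Exons of Lef1 overlap those of Gm43352 by 1208 bases, and those of Bcl9l overlap Cxcr5 and Gm47205, all on the other strand.

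In the branches that do not need beta-catenin, 1 of 16 calcium branch genes fell, and the other 22 of 23 planar polarity genes beside Celsr3 did not pass. Celsr3, a cadherin of planar polarity and axon tracts, had 0.273, 0.173 and 0.342 scaled RPKM in Cdyl-Het compared with 1.27, 1.59 and 1.58 in Cdyl-KO. Its Cdyl-Het mean lay under 1 RPKM, so that it is listed only through its level in Cdyl-KO, and these values are a description. Their log2 difference was 0.97 with the pseudocount of 1 and ran from 0.30 with a pseudocount of 5 to 2.14 with 0.1. Plcb2, a phospholipase C, had 2.17, 2.51 and 3.03 in Cdyl-Het, against 1.03, 1.68 and 0.991 in Cdyl-KO (log2 change -0.68, SE 0.15, adjusted p = 0.0392). The groups did not overlap, and only leaving out Cdyl-KO replicate 2 kept the call. The adjusted p was 0.0553, 0.104 and 0.131 without Cdyl-Het replicate 1, 2 or 3, and it was 0.110 and 0.103 with Cdyl-KO replicate 1 or 3 left out.

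Known targets of beta-catenin moved in both directions: 6 of 17 rose and 2 fell, with a median log2 change of 0.16. This list shares Axin2, Lef1, Notum, Apcdd1, Tcf7 and Nkd1 with the lists above, and of these only Axin2 and Lef1 were called. Sp5, a transcription factor and direct target, had 3.48, 3.09 and 3.05 scaled RPKM in Cdyl-Het compared with 7.03, 5.79 and 6.66 in Cdyl-KO (log2 change 0.83, adjusted p = 0.00375). Tnfrsf19, a receptor of the tumour necrosis factor family, had 17.5, 15.2 and 14.4 and then 24.7, 22.4 and 24.9 (log2 change 0.58, adjusted p = 0.0104). The groups lay far apart in both genes, and both calls held in every alternative in which the gene was tested. Id2, an inhibitor of basic helix-loop-helix factors, rose from 34.8 ± 2.21 to 49.3 ± 3.62 (log2 change 0.49, adjusted p = 0.0129), and the call was lost without Cdyl-Het replicate 2 (0.0540) or 3 (0.0561). Ccnd1, which encodes cyclin D1, fell from 13.8 ± 1.13 to 9.72 ± 0.484 (log2 change -0.46, adjusted p = 0.0138), and the call was lost when Cdyl-Het replicate 3 (0.0529) or Cdyl-KO replicate 1 (0.0515) was left out. Its exons overlap those of LTO1 on the other strand by 1100 bases. The summed coelomic epithelium markers were higher and the summed endothelial markers lower in every Cdyl-KO library. Past the threshold were 4 of 11 and 5 of 12 markers, beside 4.67% of all genes higher and 2.83% lower. The part of these cell types in these results was not tested.

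**Figure D5:**
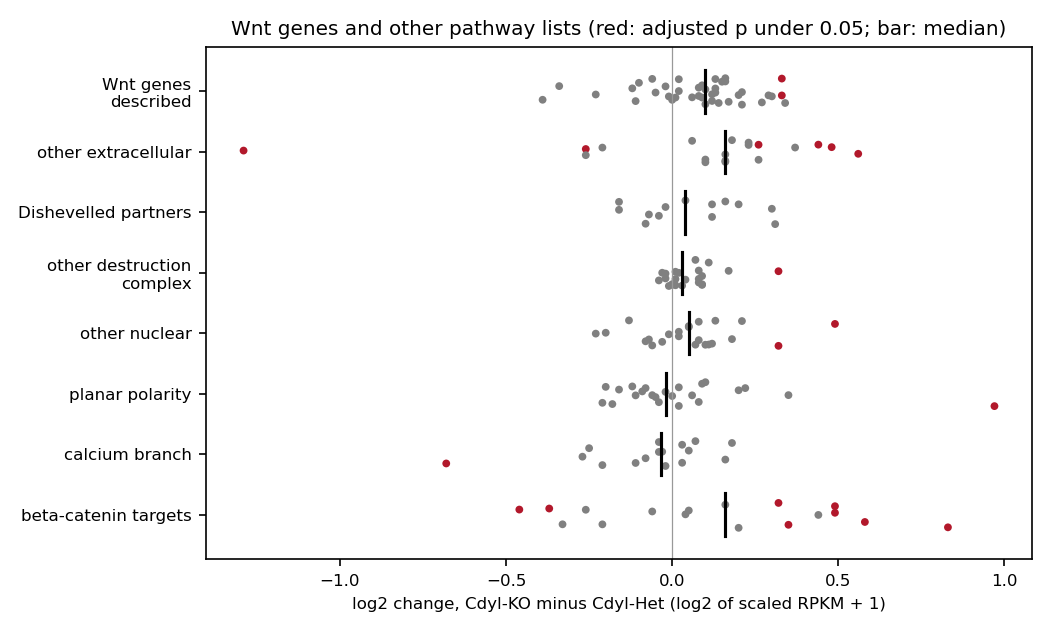
Log2 change, Cdyl-KO minus Cdyl-Het, of each listed gene (points) in the 40 Wnt pathway genes (top) and 7 further lists, with the median of each as a black bar; red marks an adjusted p under 0.05. The 40 genes span -0.39 to 0.34, while Lrp4 at -1.29 and Celsr3 at 0.97, both with a pseudocount of 1, lie outside that span; Celsr3 is listed only through its Cdyl-KO level.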

How the data were processed

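Total RNA of hCD271-positive gonadal cells was sequenced from stranded libraries for small inputs (SMARTer Pico), in 3 Cdyl-Het and 3 Cdyl-KO samples, grouped by the genotype in the labels. The submitters' processing notes name the genome build mm10 and the tools STAR, Subread and featureCounts 1.6.4. The sources used here do not give the annotation, the strand setting or the gene filter. The authors deposited 1 value per gene and library for 11736 genes, with no unit stated. The deposited values were taken as RPKM, since they were not whole and summed to between 191953 and 209917 per library.

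Values were scaled by a trimmed mean of log ratios against Cdyl-Het replicate 1 (30% of ratios and 5% of levels trimmed at each end). After a pseudocount of 1 was added, log2 values were fitted with limma 3.58.1 in R 4.3.3 on group alone, with a spread that depends on level. The threshold was an adjusted p of 0.05 (Benjamini-Hochberg, 11736 genes). Summed levels and shares are descriptions without a test. The procedure was checked on simulated data. The implied depth of 34.6 to 45.2 M reads comes from the steps of low values. Because 64% to 70.2% of whole values were even, separate fragments may be fewer than reads.

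The genes described, the other lists and the marker lists were chosen with earlier results of these data known. Given in full were genes past the threshold, genes whose groups did not overlap with a log2 change of at least 0.3 in size, and the gene of highest level in each role; of the other lists, up to 4 called genes by smallest p, with Wnt4 and Rspo1. Positions are those of GENCODE for GRCm38 (mm10), in which all 40 symbols matched a single gene. Exons of Fzd5, Sfrp2, Tcf7l1 and Wnt5a also overlap those of a predicted gene. The alternatives were pseudocounts of 0.1 and 5, a mean of at least 5 RPKM, 3 other treatments of scale, a spread without trend, a replicate block and leaving out each library.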

Additional observations from a re-analysis of the deposited data

How the results depend on the processing

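Of the 40 genes, 2 were higher with a pseudocount of 0.1, median-of-ratios scaling, quantile normalization or no trend. With a pseudocount of 5, 3 were higher (Dvl1, Dvl2 and Wnt2b). Among genes with a mean of at least 5 RPKM, 3 were higher (Dvl1, Dvl2 and Fzd4), and Wnt2b was not tested. With 1 library left out, 12 to 21 of the 40 genes lay above without overlap and 4 to 6 below, beside 12 and 4 with all libraries. Over all genes, 2413 to 2637 then lay above and 2202 to 2383 below, beside 2001 and 1706 with all libraries. The fits with 1 library left out gave 0 to 2 higher and 0 lower of the 40 genes. Over all genes they gave 197 to 387 higher and 56 to 260 lower. In the same fits, other extracellular modulators had 2 to 4 higher and 1 lower, destruction complex genes 0 to 1 higher, nuclear factors 0 to 2 higher, planar polarity 0 to 2 higher, calcium branch 0 to 1 lower, and targets 2 to 5 higher and 0 to 2 lower. Without scaling, 0 of the 40 genes were higher and 5 lower, 305 of all genes higher and 1558 lower; without overlap, 3 of the 40 lay above and 12 below, and 734 and 4287 of all genes. Also without scaling, 0 destruction complex genes and 1 nuclear factor were higher, 3 nuclear factors, 3 planar polarity genes, 2 calcium branch genes and 4 targets lower, and the summed differences were -11.7 (destruction complex and beta-catenin), -1.01 (TCF and coactivators), -1.37 (antagonists), 1.67 (Dishevelled), 0.442 (Frizzled), -2.97 (Lgr4, Znrf3 and Rnf43), -6.90 (co-receptors), -0.0528 (Wls) and -0.0382 (ligands) RPKM as deposited. Quantile normalization gave -3.77 for the destruction complex and beta-catenin and -1.72 for Lgr4, Znrf3 and Rnf43. Among genes with a mean of at least 5 RPKM, where fewer genes are tested, 200 were lower, and 0 planar polarity and 0 calcium branch genes were called. With no trend, 1 other extracellular modulator was lower. A replicate block gave 0 higher of the 40 genes, 209 higher and 128 lower over all genes, 1 lower other extracellular modulator, 0 higher destruction complex genes, 0 higher nuclear factors, 0 higher planar polarity genes, 0 lower calcium branch genes, and 3 higher and 1 lower targets. Same-numbered samples deviated together with correlations of -0.05, -0.27 and -0.05, and no library correlated best with its own number, so the pairing rests on a number alone. The cause of these differences was not tested. Depth limits Frzb most, with about 84 reads.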
